A study of Rattus norvegicus with 12 samples.

Results

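Cartilage and tendon matrix genes were followed in rat laryngeal muscle after injury of the recurrent laryngeal nerve. The set was defined by name as 10 genes: Acan, Clec3a, Chad, Scrg1, Fmod, Prg4, Comp, Matn1, Matn3 and Sox9. The set and the other gene lists used below were chosen with earlier results of these data known. Counts of their genes called are therefore a description. A gene was measured if the array annotation gave a probe set (the group of probes that reads a transcript) its symbol alone. That was so for 8 of the 10, each with 1 probe set, among 14329 genes in all. Comp and Sox9 were not analysed here.

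The specimens were 2 laryngeal muscle preparations of male F344 rats: the posterior cricoarytenoid (PCA), which moves the vocal folds apart, and the adductor complex (AC), which brings them together. Injured rats had the recurrent laryngeal nerve cut on one side with 1 cm removed, and control rats had the same approach with the nerve left whole; tissue was taken 1 week later. The 4 groups (PCA control, PCA injury, AC control, AC injury) held 3 arrays each. The labels give 10 rats per surgery but no age, no side of the sampled muscle and no animal per array, so the p-values rest on array-to-array spread that may be technical. All rats, controls included, were anaesthetised with ketamine and xylazine and operated on, so no group is an unoperated larynx.

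Cartilage resists compression because aggrecan, a very large proteoglycan carrying sulphated sugar chains, is held by hyaluronan and link protein within a network of type II collagen. Matrilins bridge these networks, and small leucine-rich proteins such as chondroadherin and fibromodulin bind collagen fibrils and cells. Tendons and gliding surfaces add lubricin, the product of Prg4, which lowers friction. The laryngeal muscles arise from and insert on the cricoid, thyroid and arytenoid cartilages, so a dissected specimen may carry cartilage, perichondrium and tendon beside muscle fibres. In such bulk tissue, fewer cells of a type and less RNA per cell cannot be told apart.

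All specimens carried skeletal muscle transcripts: the mean log2 value over 12 muscle markers lay between 11.80 and 12.76 on every array, and the actin gene Acta1 lay between 13.40 and 13.68. Array medians lay between 7.11 and 7.17, and precision was limited by having 3 arrays per group. PCA control 1, PCA injury 2 and AC injury 2 stood apart in thyroid and parathyroid transcripts, with a mean log2 value of 9.90, 9.68 and 8.50 over 12 markers against 6.27 to 7.12 on the other 9 arrays. The counts of matrix genes called are therefore also given without these 3 arrays. Leaving them out did not remove all thyroid transcripts. The thyroid marker Tg read 8.44 to 13.91 over the injured PCA arrays, against 5.93 to 6.45 in AC controls. Counts without the 3 arrays are thus not free of thyroid signal. Values are log2 expression values, and differences are log2 differences ± SE from limma with n = 3 arrays per group; a gene was called at a Benjamini-Hochberg adjusted p under 0.05 over all genes.

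In the PCA, all 8 measured matrix genes were lower after nerve injury, by 2.45-fold (Chad) to 5.02-fold (Scrg1), and the 3 injured arrays lay below the 3 controls for each of them. The count of members called lower was 8 of 8, where 12.5% of all genes were called lower and 25.8% in either direction. The median difference over the 8 genes was -1.72, against -0.03 over all genes. For comparison, all 3 injured arrays lay below all 3 controls for 18.8% of all genes. The genes were chosen with earlier results of these data known, so these counts describe them and do not test the set. All 8 were also called without the 3 arrays rich in thyroid and parathyroid transcripts, where 16.3% of all genes were called.

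Acan, which encodes aggrecan, stood at 11.86, 11.20 and 12.14 in the PCA controls and at 10.04, 10.02 and 9.43 in injured PCA. Every injured array was more than 1 log2 unit below every control. The difference was -1.90 ± 0.35 (3.74-fold lower, limma adjusted p = 0.0029). The matrilins fell with it. Matn1, known as cartilage matrix protein, read 9.80, 9.29 and 10.31 in controls and 8.01, 8.32 and 7.48 after injury, a difference of -1.86 ± 0.34 (limma adjusted p = 0.00276). Matn3, a matrilin of growing cartilage, read 8.77, 8.19 and 9.08 in controls and 7.61, 7.23 and 6.49 after injury (-1.57 ± 0.33, limma adjusted p = 0.00605). PCA injury 3 was the lowest injured array for all 3 of these genes.

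Chad, which encodes the collagen-binding and cell-binding protein chondroadherin, read 12.74, 12.46 and 12.75 in PCA controls and 11.17, 11.42 and 11.49 in injured PCA. The spread within each group was small (SD 0.17 in both), and the fall of 1.29 ± 0.13 had a limma adjusted p of 0.000207. Fmod encodes fibromodulin, a regulator of collagen fibril thickness in tendon and cartilage. It read 11.25, 11.67 and 11.57 in controls and 10.23, 9.79 and 10.12 after injury, a difference of -1.45 ± 0.14 (2.73-fold lower, limma adjusted p = 0.000196). These leucine-rich repeat genes had the smallest SE of the set. By p-value Fmod ranked 23 and Chad 34 among all genes for injury in PCA.

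Clec3a and Scrg1 encode small secreted proteins known from cartilage and from cells that form it. Clec3a read 10.95, 10.17 and 11.22 in PCA controls and 8.60, 8.87 and 8.40 in injured PCA, a gap of more than 1 log2 unit between the nearest arrays. Its difference was -2.16 ± 0.32 (4.46-fold lower, limma adjusted p = 0.00106). Scrg1 read 9.15, 8.20 and 9.14 in controls and 6.75, 7.02 and 5.74 after injury. Its arrays scattered most around their group means (residual SD 0.65), and its difference was also the largest of the set, -2.33 ± 0.45 (limma adjusted p = 0.00382). Scrg1 was below 6.23, the mean that bounds the dimmest 25% of genes, on 3 of the 12 arrays (PCA injury 3, AC control 1 and AC injury 3), so its folds are set against dim values.

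Prg4, the lubricin gene of joint surfaces and tendon sheaths, read 11.71, 11.38 and 11.17 in PCA controls and 10.31, 9.55 and 10.02 in injured PCA. The groups did not overlap, and the difference was -1.46 ± 0.22 (2.75-fold lower, limma adjusted p = 0.00108). Here PCA injury 2, not PCA injury 3, was the lowest array, as it was for Fmod.

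**Figure D1:**
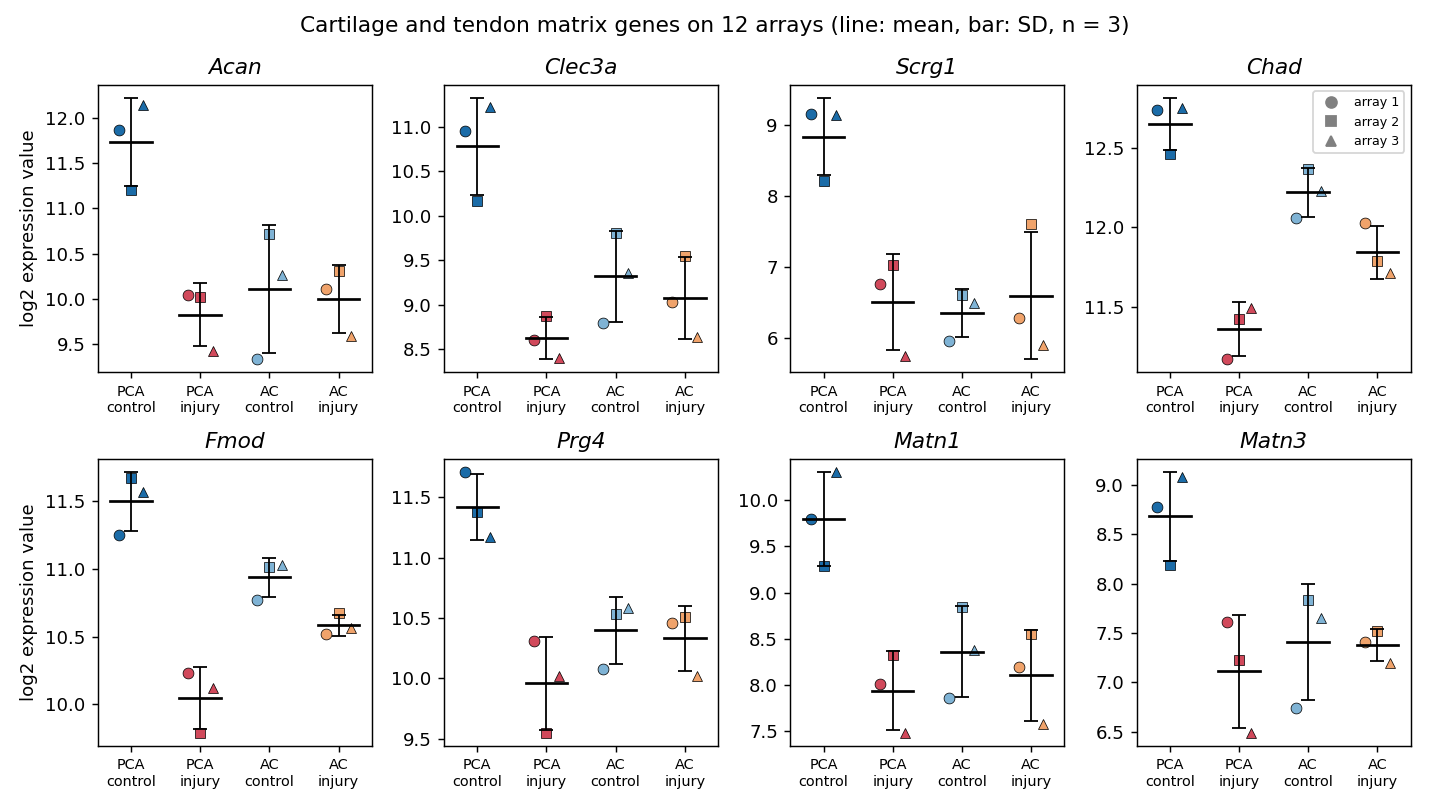
Log2 expression value (vertical axis) of the 8 measured matrix genes on each of 12 arrays, by group; the horizontal line is the group mean and the bar the SD, n = 3, with 1 symbol shape per array number. In every panel the 3 PCA control arrays lie above all 9 other arrays, for example Acan at 11.20 to 12.14 against 9.34 to 10.72. The share of all genes with this pattern was not computed.

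Uninjured PCA and uninjured AC differed in the same genes. The members were higher in the PCA for 8 of 8 genes, with all 3 PCA controls above all 3 AC controls, as for 17.7% of all genes. By limma 7 were called higher, where 3.24% of all genes were called higher and 10.6% in either direction. This comparison uses the same PCA control arrays as that of injury in PCA, so both sets of values are given side by side and their likeness is not a result. Scrg1 showed the largest gap, at 5.96, 6.60 and 6.49 in AC controls and 2.48 ± 0.45 higher in the PCA (5.58-fold, limma adjusted p = 0.00653). Acan was 1.62 ± 0.35 higher (AC controls 9.34, 10.72 and 10.27), Clec3a 1.46 ± 0.32 (8.79, 9.81 and 9.36) and Matn1 1.44 ± 0.34 (7.86, 8.84 and 8.38).

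The other 4 genes had gaps of 0.43 to 1.27. Prg4 was 1.02 ± 0.22 higher in control PCA (AC controls 10.08, 10.53 and 10.58) and Fmod 0.56 ± 0.14 higher (10.77, 11.01 and 11.03), both called by limma. Matn3 was 1.27 ± 0.33 higher (6.74, 7.83 and 7.65; limma adjusted p = 0.0331). Chad was 0.43 ± 0.13 higher and did not pass (12.06, 12.37 and 12.23; limma adjusted p = 0.0518). AC control 1 was the lowest AC control for all 8 genes. The count of members called depended on single arrays. It was 3 without PCA control 1, 2 without PCA control 3, 2 without AC control 1 and 4 without AC control 3. Without the 3 arrays rich in thyroid and parathyroid transcripts it was 3. Of all genes 714 to 1813 were called with single arrays left out, and 5.67% without those 3 arrays.

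In the AC, none of the 8 genes was called after injury by limma (0 of 8, against 1.91% of all genes called in either direction and 0.761% lower). At an unadjusted p under 0.05 there were 2, Chad and Fmod, both lower, where 20.3% of all genes reached that level. Chad read 12.03, 11.79 and 11.71 in injured AC, below each AC control, as 13.1% of all genes were (-0.38 ± 0.13, 95% interval -0.65 to -0.10, limma adjusted p = 0.131). Fmod read 10.52, 10.67 and 10.56, also below each control (-0.35 ± 0.14, 95% interval -0.65 to -0.06, limma adjusted p = 0.176). For the other 6 genes the injured and control AC arrays overlapped. Without the 3 arrays rich in thyroid and parathyroid transcripts 0 of 8 were called by limma. That fit called 0.0698% of all genes, so its count says little about the members.

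Acan in injured AC read 10.11, 10.31 and 9.59, a difference of -0.11 ± 0.35 with a 95% interval from -0.87 to 0.66. In the PCA the difference of -1.90 had a 95% interval from -2.67 to -1.14. The effects in both muscles are compared directly below, where Acan was not called (limma adjusted p = 0.103). Scrg1 was the one gene with a positive difference in AC, 0.24 ± 0.45, and its 3 injured arrays read 6.28, 7.60 and 5.90. The high value is that of AC injury 2, an array rich in thyroid and parathyroid transcripts. Clec3a (9.03, 9.55 and 8.63; -0.25 ± 0.32), Matn1 (8.19, 8.55 and 7.57; -0.26 ± 0.34), Matn3 (7.41, 7.52 and 7.20; -0.03 ± 0.33) and Prg4 (10.46, 10.51 and 10.02; -0.07 ± 0.22) did not pass.

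The injury effects of both muscles were then compared directly, as the effect in AC minus that in PCA. This difference uses the same PCA control arrays as injury in PCA and as PCA against AC in controls. Its sign is therefore not separate support. The estimate was positive for all 8 genes, from 0.91 ± 0.18 (Chad) to 2.57 ± 0.64 (Scrg1), with a median of 1.57 against 0.05 over all genes. None was called by limma (0 of 8, against 0.154% of all genes; adjusted p from 0.0542 for Fmod to 0.135 for Matn3). All 8 were at an unadjusted p under 0.05, which 15.7% of all genes reached. The 95% interval of the difference lay above 0 for each gene, for example 0.68 to 1.52 for Fmod and 0.72 to 2.88 for Acan. A different injury effect in the muscles was thus not called at this threshold. Without PCA control 2, 4 of the 8 genes were called. Of all genes 0 to 406 were called with single arrays left out. Without the 3 arrays rich in thyroid and parathyroid transcripts 0 of 8 were called. That fit called 0% of all genes, so its count says nothing about the members.

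Injured PCA and injured AC were compared last. None of the 8 genes was called between injured PCA and injured AC by limma (0 of 8, with 0% of all genes called; 2 at an unadjusted p under 0.05, against 3.61% of all genes). Those 2 were Fmod, at -0.54 ± 0.14, and Chad, at -0.48 ± 0.13, each with all 3 injured PCA arrays below all 3 injured AC arrays, as for 4.28% of all genes. All 8 estimates were below 0, and for Chad and Fmod they were about as far from 0 as in controls (0.43 and 0.56). Without the 3 arrays rich in thyroid and parathyroid transcripts 0 of 8 were called by limma. With 0% of all genes called, that count says nothing about the members. For Acan the difference was -0.17 ± 0.35 (95% interval -0.94 to 0.59).

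Ordered by group mean, PCA control was highest for all 8 genes, and its arrays did not overlap those of any other group. Of all genes, 18.8% had PCA control above PCA injury on all arrays, 17.7% above AC control and 20.8% above AC injury. The share of all genes with all 3 at once was not computed. For 7 genes the next means were those of AC control, then AC injury, then PCA injury. Of these 7, Chad and Fmod kept all 4 groups apart, with PCA injury below AC control as for 12.9% of all genes: Chad ran from 12.65 ± 0.17 (SD) in PCA control through 12.22 ± 0.16 in AC control and 11.84 ± 0.17 in AC injury to 11.36 ± 0.17 in PCA injury. The other 5 had overlapping arrays among the 3 lower groups. The share of all genes that kept all 4 groups apart was not computed. Scrg1 was the exception in the order, with AC injury at 6.59 ± 0.89 (SD), PCA injury at 6.50 ± 0.68 and AC control at 6.35 ± 0.34, which did not differ beyond their spread.

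**Figure D2:**
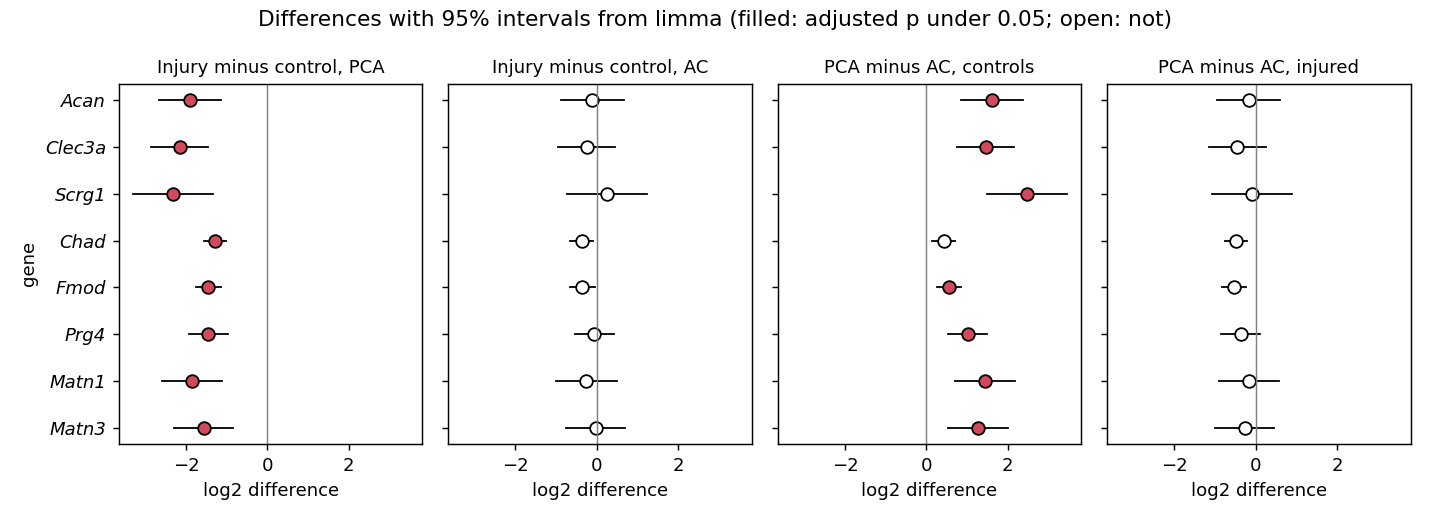
Log2 difference (horizontal axis) of each of the 8 genes with its 95% interval from limma in 4 comparisons; filled points are called at an adjusted p under 0.05, and open points are not. All 8 points are filled and negative for injury in PCA, 7 of 8 are filled and positive for PCA minus AC in controls, and none is filled in the other panels.

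The genes were also compared in pairs over the 12 arrays. The measure takes in the group differences given above, so a close pair is not a further result. Each gene was centred on its own mean over 12 arrays, and the likeness of a pair was the root mean square difference of the centred values. Acan and Matn1 were the closest pair (0.16 log2 units), followed by Clec3a and Matn1 (0.17) and Acan and Clec3a (0.20). Chad and Fmod formed another close pair (0.23), with Fmod and Prg4 at 0.30. Chad and Scrg1 were farthest apart (0.91), since Scrg1 spanned 3.41 log2 units over the arrays and Chad 1.58. Averaged over the 8 genes, the PCA controls lay 1.22, 0.77 and 1.37 above the gene means, and the injured PCA arrays were at -0.47, -0.53 and -0.91 (PCA injury 1, 2 and 3).

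By the same measure, the gene outside the set closest to its mean profile was Hapln1, the link protein that ties aggrecan to hyaluronan (0.15). Hapln1 stood at 9.26 to 10.11 in PCA controls, 7.52 to 7.99 in injured PCA, 7.98 to 9.10 in AC controls and 8.01 to 8.64 in injured AC. Next came Grem1, a secreted antagonist of bone morphogenetic proteins (0.17), Meltf (0.19) and Crispld1 (0.20). Zfp385b, Serpina3n, Rspo3, Stk32b, Serpina1 and Prodh completed the 10 closest genes (0.24 to 0.29), and the median over all genes was 0.72. These 12 arrays share the group structure, so the likeness is a description.

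**Figure D3:**
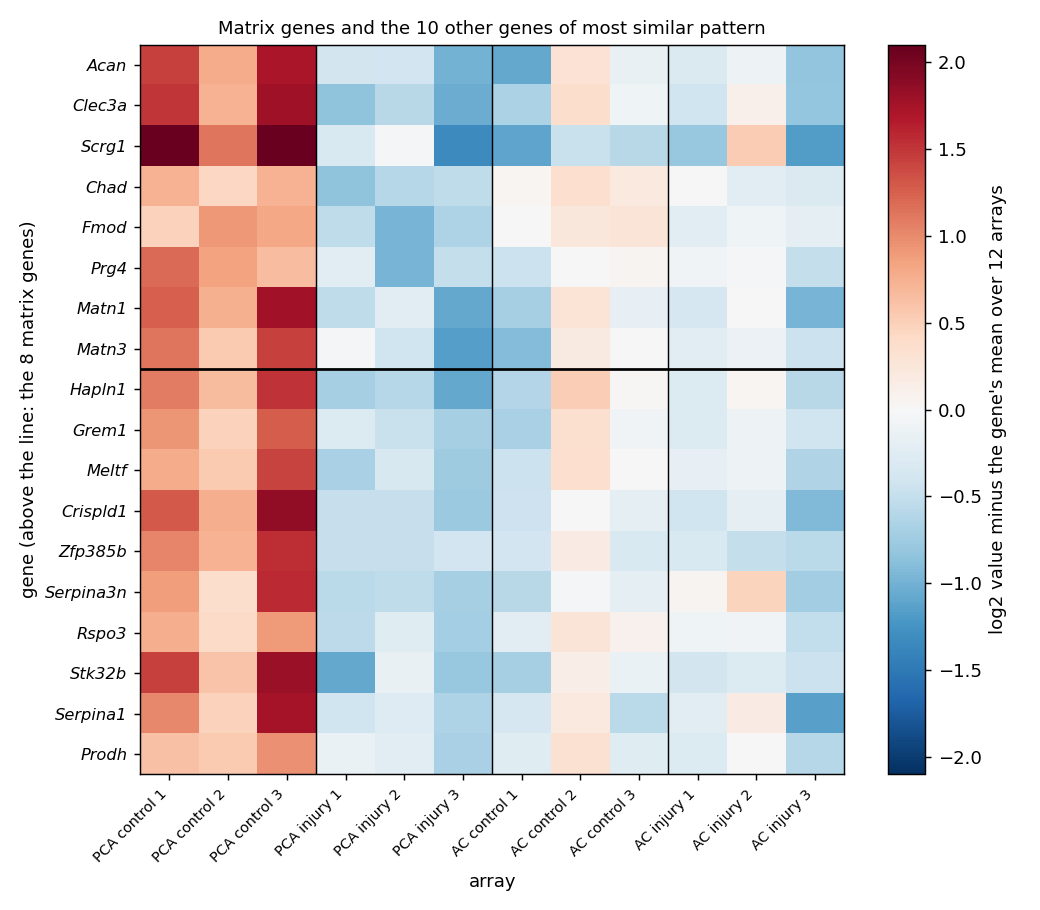
Log2 value minus the gene's mean over 12 arrays (colour) for the 8 matrix genes, above the line, and the 10 other genes of most similar pattern, below it; columns are arrays in 4 groups. The 3 PCA control columns are red for all genes, from 0.38 (Serpina3n in PCA control 2) to 2.08 (Scrg1 in PCA control 1).

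Other cartilage genes were taken from a list of 31 symbols, of which 28 were measured. In injured PCA 20 of the 28 fell, 1 rose and 7 did not pass, with a median of -0.83. Of all genes, 12.5% were called lower there and 25.8% in either direction. Col2a1, the main cartilage collagen, fell by 1.20 ± 0.27, Col9a1 by 0.95 ± 0.20 and Col9a2 by 0.52 ± 0.12. Hapln1 fell by 1.88 ± 0.29, Papss2, which makes the sulphate donor for proteoglycans, by 1.30 ± 0.16, and Xylt1, which starts their sugar chains, by 1.06 ± 0.16. Epyc, a small leucine-rich proteoglycan named after its value was seen, was the gene that rose (1.16 ± 0.35). In AC none of the 28 was called by limma (0 called; 6 at an unadjusted p under 0.05, all lower, where 20.3% of all genes reached that level), with Col2a1 at 0.15 ± 0.27 and Hapln1 at -0.24 ± 0.29. In controls 9 were higher in the PCA, 1 was lower and 18 did not pass, with Col2a1 at 1.45 ± 0.27 and Xylt1 at 0.80 ± 0.16. Of all genes, 3.24% were called higher in control PCA and 10.6% in either direction.

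Tendon and fibrous matrix genes did not move as 1 block in injured PCA. Of 17 measured, 10 rose, 4 fell and 3 did not pass, with a median of 0.49. Of all genes, 25.8% were called there in either direction and 12.5% lower. Those that fell were Tnmd, the tendon membrane protein tenomodulin (-1.30 ± 0.22), and the small leucine-rich proteoglycans Kera (-1.52 ± 0.35) and Omd (-1.46 ± 0.20), with Prelp, named after its value was seen, at -0.44 ± 0.13. Those that rose included Lum, a related proteoglycan (1.18 ± 0.17), and Cilp (0.99 ± 0.15). Scx, the transcription factor of tendon cells, was at 0.08 ± 0.15 and did not pass. In AC limma called 1 of the 17 higher, Cilp (0.88 ± 0.15), and none lower. Of all genes, 1.91% were called in AC in either direction. At an unadjusted p under 0.05 there were 10 higher and 0 lower, where 20.3% of all genes reached that level in either direction.

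Of 12 measured genes that cut or protect matrix, 7 rose in injured PCA, none fell and 5 did not pass. In either direction 25.8% of all genes were called there. Adamts4, an aggrecan-cleaving protease, stood at 6.95 to 7.17 in PCA controls and 8.14 to 8.65 in injured PCA (1.30 ± 0.21). In AC it stood at 6.71 to 7.36 in controls and 7.77 to 8.53 after injury (1.12 ± 0.21), and both muscles passed. Adamts5, another aggrecanase, was at 0.02 ± 0.10 in PCA and -0.09 ± 0.10 in AC and passed in neither. Mmp14 rose by 1.58 ± 0.22 and the inhibitor Timp1 by 1.76 ± 0.24 in PCA. In AC 2 of the 12 rose, Adamts4 and Timp1 (1.23 ± 0.24), while Mmp14 was at 0.95 ± 0.22 and did not pass. In either direction 1.91% of all genes were called in AC.

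Vcan, the large proteoglycan of loose connective tissue and a relative of aggrecan, went the other way from Acan in injured PCA. It stood at 7.81 to 8.62 in PCA controls, 9.70 to 10.84 in injured PCA, 9.51 to 9.90 in AC controls and 10.08 to 10.69 in injured AC. Its difference was 1.93 ± 0.29 in PCA (called) and 0.81 ± 0.29 in AC (limma adjusted p = 0.152). Of 9 measured genes of hyaluronan and large proteoglycans 2 rose in PCA, Vcan and the hyaluronan receptor Cd44 (0.43 ± 0.10), 1 fell, Hapln3 (-0.47 ± 0.09), and 6 did not pass, among them the hyaluronan synthase Has2 (0.80 ± 0.32). In injured PCA 25.8% of all genes were called in either direction. In AC none of the 9 was called by limma (3 at an unadjusted p under 0.05, which 20.3% of all genes reached).

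Markers of other tissues were measured on the same arrays, and some of them also changed in injured PCA. Of all genes, 25.8% were called for injury in PCA in either direction and 12.5% lower. For PCA against AC in controls 10.6% were called in either direction. Of 9 squamous epithelium markers 8 rose in injured PCA; their mean log2 value was 7.59 to 9.96 in PCA controls, 10.48 to 11.20 in injured PCA, 11.23 to 11.68 in AC controls and 10.71 to 11.21 in injured AC. All 9 were lower in control PCA than in control AC. Among the PCA controls, array 2 was highest in these markers and lowest in 6 of the 8 matrix genes. That array was also the highest PCA control in adipocyte, skeletal muscle and macrophage markers (means of 8.96, 12.76 and 9.07). It was not the highest in airway epithelium or thyroid and parathyroid markers. With this marker mean as a covariate, 2 of the 8 genes were still called lower in injured PCA, Chad (-1.10 ± 0.22) and Fmod (-1.50 ± 0.25), where 2.78% of all genes were called. Acan was then at -0.74 ± 0.47 and Matn3 at -0.39 ± 0.43, and 0 of 8 were called by limma for PCA against AC in controls, where 0.014% of all genes were called. Since the marker mean itself differs between PCA control and injured PCA, the SE for injury in PCA widened as well (Acan from 0.35 to 0.47). For injury in AC the SE narrowed for Acan (from 0.348 to 0.275), Clec3a, Scrg1, Matn1 and Matn3. There it widened for Chad, Fmod and Prg4.

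Adipocyte markers changed in the same direction as the matrix genes. All 10 fell in injured PCA, and 9 were higher in control PCA than in control AC. Of all genes, 12.5% were called lower in injured PCA, and 3.24% were called higher in control PCA. The adipocyte mean was 8.51 to 8.96 in PCA controls, 7.16 to 7.86 in injured PCA, 7.28 to 7.34 in AC controls and 7.06 to 7.65 in injured AC. Of 12 skeletal muscle markers 7 fell in injured PCA, and 4 were called higher in control PCA than in control AC. Their mean was 12.63 to 12.76 in PCA controls and 11.80 to 12.47 in injured PCA, with 12.26 to 12.46 in AC controls and 12.04 to 12.23 in injured AC. With that mean as a covariate all 8 matrix genes were called lower in injured PCA, where 11.6% of all genes were called. Of 11 macrophage markers 10 rose, with a mean of 8.36 to 9.07 in PCA controls and 10.19 to 10.70 after injury. Of 9 airway epithelium markers 1 rose and 2 fell, where 25.8% of all genes were called in either direction. None of the 12 thyroid and parathyroid markers was called for injury in PCA by limma (0 called, 0 at an unadjusted p under 0.05). The part of these other tissues in the matrix gene results was not tested beyond the covariate values given.

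**Figure D4:**
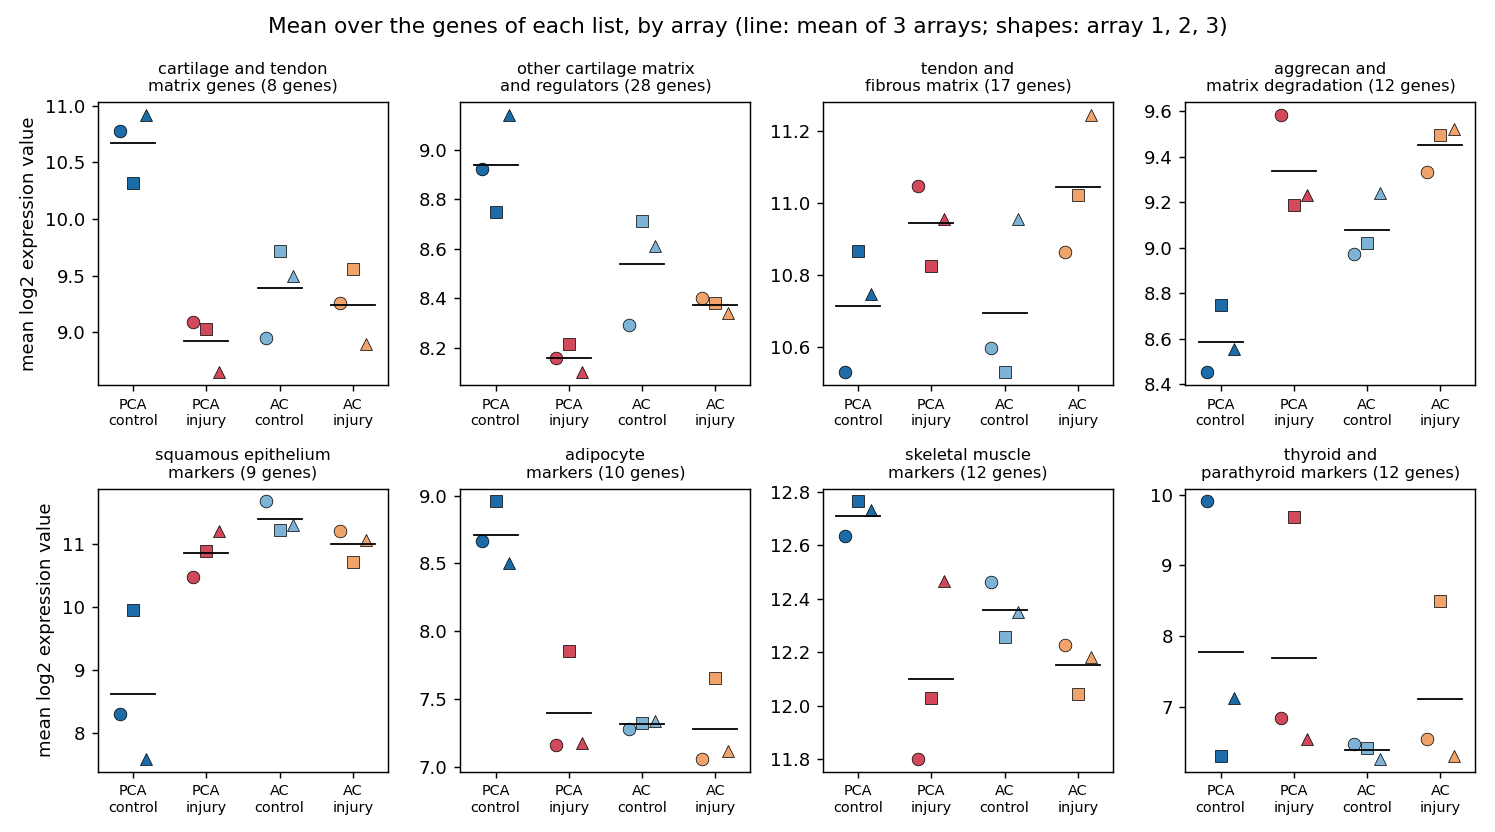
Mean log2 expression value (vertical axis) over the genes of 8 lists on each of 12 arrays, by group; lines are means of 3 arrays and shapes the array number. The matrix genes and the other cartilage genes are highest in PCA controls (10.32 to 10.92 and 8.75 to 9.14). Adipocyte and skeletal muscle markers are highest there too. Squamous markers are lowest there, and the matrix degradation list is lowest in PCA controls (8.45 to 8.75).

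The promoters of the matrix genes were also described, and their part in the results was not tested. RefSeq windows of GRCr8, from 250 bases before to 50 after the start site, were at hand for 6 of the 8 measured genes. The letters searched on both strands were AACAAT and ACAAAG, known from the SOX family of cartilage regulators, CATCTG, an E-box known from Scx, and TATAAA, the TATA box; the matches found do not overlap one another. Of the 6 windows, 0 held AACAAT (11.7% of all 33469 windows did), 2 held ACAAAG (Prg4 and Scrg1; 18.8% of all), 0 held CATCTG (16.6% of all) and 2 held TATAAA (Chad on the gene's strand and Prg4 on the opposite strand, which is not a TATA box in the gene's direction; 14.2% of all on either strand). A match is a description of letters, and no binding was measured.

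The windows of 3 genes are shown as examples. They are printed 5′ to 3′ on the gene's strand, with matched letters in capitals. Acan (chr1:142390701-142391000, plus strand) is 73.0% G or C and holds none of the letters. Chad (chr10:80008795-80009094, plus strand; 60.0% G or C) has its TATA box starting 29 bases before the start site. Scrg1 (chr16:37798961-37799260, minus strand; 47.0% G or C) has ACAAAG starting 86 bases before it. The median over all windows was 51.7% G or C.
Acan: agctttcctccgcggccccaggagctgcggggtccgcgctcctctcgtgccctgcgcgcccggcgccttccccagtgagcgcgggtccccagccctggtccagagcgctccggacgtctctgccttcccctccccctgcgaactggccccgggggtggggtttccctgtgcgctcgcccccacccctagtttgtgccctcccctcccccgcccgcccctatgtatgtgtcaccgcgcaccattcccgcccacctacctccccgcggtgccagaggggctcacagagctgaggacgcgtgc
Chad: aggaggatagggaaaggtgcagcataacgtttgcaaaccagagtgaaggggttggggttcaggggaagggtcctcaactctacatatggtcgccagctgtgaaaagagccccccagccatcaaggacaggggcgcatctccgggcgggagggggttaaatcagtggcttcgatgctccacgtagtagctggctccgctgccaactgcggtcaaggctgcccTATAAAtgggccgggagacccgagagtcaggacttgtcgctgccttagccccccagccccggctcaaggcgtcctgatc
Scrg1: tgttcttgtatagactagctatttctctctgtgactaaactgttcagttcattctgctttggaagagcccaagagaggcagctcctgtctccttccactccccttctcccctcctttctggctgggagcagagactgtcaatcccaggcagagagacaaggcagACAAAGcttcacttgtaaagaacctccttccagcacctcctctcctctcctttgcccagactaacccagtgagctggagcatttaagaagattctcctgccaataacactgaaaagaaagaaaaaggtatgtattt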

How the data were processed

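Total RNA, 100 ng per specimen of 30 to 50 mg tissue, was labelled with biotin for 12 Affymetrix whole-transcript rat arrays, per the labels' protocols; the labels' molecule field says polyA RNA instead, which was not resolved here. The values deposited by the authors are log2 expression, with 1 value for each probe set on each array. The submitters' processing notes name RMA and Partek without version, role or order; values from 2.57 to 14.04 fit a log base of 2, which no label states. RMA is known to quantile-normalise, so a difference is relative to the rest of the array. The annotation version is not given in the sources used here.

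Of 27342 probe sets 15103 carried 1 gene symbol, 317 several and 11922 none; for 14329 genes the probe set with the highest mean was kept. All 8 measured members had 1 probe set, and none had a mean over the 12 arrays below 6.23, the limit of the dimmest 25% of genes. Group means were fitted to all 12 arrays with limma 3.58.1 in R 4.3.3 (8 residual and 3.14 prior degrees of freedom). Tests were two-sided, and p-values were adjusted over all genes by Benjamini-Hochberg. The fit was checked on simulated data with known changes. Every member was named; from other lists the first 3 measured, the 3 with the smallest p for injury in PCA and the 1 for injury in AC could be named. Members, lists and motifs were chosen with earlier results of these data known. Alternatives covered normalisation, dim genes, probe sets, the prior, array weights, replicate numbers, single arrays and marker scores; 2 marker covariates (thyroid and parathyroid, skeletal muscle) were added after seeing the data. Plots were drawn with Python 3.11.15 and matplotlib 3.10.9.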

Additional observations from a re-analysis of the deposited data

How the results depend on the processing

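Over 952 recomputed member differences, 886 kept their direction and call or were not called either time, 38 lost their call and 27 gained one. The sign changed in 13 of 192 for injury in AC and 9 of 192 between the injured muscles, none of them called, and in 0 of 192 for injury in PCA and 0 of 184 for the difference of the injury effects. Of differences called at first, 1 turned sign: Matn3, PCA against AC in controls, was -0.19 ± 0.50 with the squamous marker mean as a covariate, and not called. The number of members called for injury in PCA was 8 under every alternative but that covariate, which left 2, and it was 0 for injury in AC and between the injured muscles under each alternative. For the difference of the injury effects the main count was 0, with 0.154% of all genes called. It was 1 with quantile normalisation repeated (0.272% of all genes called) and 1 with a trended and robust prior (0.244%). It was 4 with array weights (2.43%), 1 with the thyroid and parathyroid mean as a covariate (0.293%) and 7 with the skeletal muscle mean as a covariate (5.66%). With single arrays left out it was 0 to 4, while 0 to 406 of all genes were called. For PCA against AC in controls it was 3 without the 3 arrays rich in thyroid and parathyroid transcripts (5.67% of all genes called). With the squamous covariate it was 0 (0.014%). With single arrays left out it was 2 to 8, while 714 to 1813 of all genes were called, against 1523 in the main fit. The causes were not tested. Replicate numbers were not used as pairs, since no label ties an array to an animal. Same-numbered arrays correlated from -0.39 to 0.34 across genes, over 0.1 in 4 of 18 pairs. Differently numbered arrays correlated from -0.618 to 0.655, over 0.1 in 15 of 36 pairs. Most of the same-numbered pairs join a control to an injured rat. Those of PCA and AC within 1 surgery were at -0.047, -0.335 and 0.029 in controls and at -0.393, 0.339 and 0.269 after injury. Whether a PCA and an AC array share a rat was not settled. With the replicate number as a block 8 members were called for injury in PCA, 0 for injury in AC and 0 for their difference. For PCA against AC 6 were called without injury and 0 after it. Of all genes 22.6%, 0.412%, 0%, 8.11% and 0% were called, in that order. Matn3 lost its call in controls under that block (limma adjusted p = 0.0687). All genes called for injury in AC numbered 274, but 59 with that block, 703 with array weights and 13 to 663 with single arrays left out; for injury in PCA they numbered 3697, and 399 with the squamous covariate.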

Other observations

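The matrix genes differed between arrays of the same group more than most genes did. Their residual SD around the group means ran from 0.16 (Chad) and 0.18 (Fmod) to 0.50 (Acan) and 0.65 (Scrg1), against a median of 0.13 over all genes. Within groups the order of arrays was shared by most members: AC control 1 was the lowest AC control for 8 of 8 genes, AC injury 3 the lowest injured AC array for 7, PCA control 2 the lowest PCA control for 6 and PCA injury 3 the lowest injured PCA array for 5. AC injury 2, which was high in thyroid and parathyroid markers, was the highest injured AC array for 7 of 8 genes. Of the other arrays high in those markers, PCA control 1 was the highest of its group for 2 genes and PCA injury 2 for 3.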
